A study of Mus musculus with 12 samples.

Results

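The ankyrin, spectrin and axon initial segment genes described here are Ank1, Ank2, Ank3, Sptan1, Sptbn1, Sptbn4, Nfasc, Epb4.1l3 and Add1. They were chosen by symbol from the count tables of a RiboTag experiment on cultured mouse DRG (dorsal root ganglion) neurons, and all 9 are among the 9112 genes that both tables hold. The list was proposed with the pull-down against input contrast of each genotype known, so the values of that contrast are given below as a description of these genes. RiboTag mice carry an Rpl22 allele whose ribosomal protein gains an HA epitope wherever Cre recombinase is active, and an anti-HA antibody then pulls down ribosomes with their RNA.

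Every group came from adult male mice of 3 to 6 months by the labels, homozygous for the tagged allele (Rpl22HA/HA). Neurons of all ganglia were passed over a Percoll cushion and cultured for 24 h in serum, and each sample pooled 5 mice. The labels put 3 HA pull-downs and 3 inputs in genotype Runx3-Cre+, in which the Runx3 promoter drives Cre in proprioceptive neurons, and as many of each in Runx3-Cre-, whose mice carry no Cre and whose pull-downs stand for the background of the method. Input was the 10% of a lysate set aside before the pull-down, and nothing in the labels says that samples of a group came from separate cultures, so p-values measure only the spread between these samples.

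Library totals ran from 8886308 to 18633365 counts. Levels are given as normalized counts, scaled to 1000000 per library by library size and TMM (trimmed mean of M values) factors over the 12 libraries. The summed marker levels given further below were scaled within each genotype instead. Runx3, which should mark the Cre+ pull-downs, went against the labels. It had 23.4, 2.19 and 11.6 normalized counts in the 3 pull-downs labelled Cre+ against 2.49 to 5.72 in their inputs, and 20.2, 34.8 and 49.9 in the pull-downs labelled Cre- against 1.86 to 4.64 in theirs. Enrichment of Runx3 was 1.55 ± 0.87 (log2, SE) in the former (adjusted p = 0.309, edgeR quasi-likelihood test) and 3.52 ± 0.43 in the latter (adjusted p = 0.000236), and the difference of −1.93 ± 0.996 did not pass (adjusted p = 0.302). The proprioceptive markers looked up were Runx3, Ntrk3, Etv1, Pvalb, Spp1 and Whrn. Of these 1 of 5 tested (Ntrk3) was enriched in the libraries labelled Cre+, against 4.72% of all genes. In those labelled Cre- 6 of 6 were enriched, against 6.01% of all genes. Cre+ and Cre- therefore stand below for what the labels call the libraries, and every direction between the genotypes given below would turn if the labels of the tables were exchanged. In the paper's comparison with Runx3-Cre tissue, overlap with the Cre+ cultures was significant, and consistency with the Cre- cultures was poorer.

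Ankyrins are adaptor proteins that tie membrane proteins to the spectrin skeleton under the plasma membrane. Spectrin is a flexible rod of α and β subunits that lines axons as a lattice of actin rings held apart by spectrin. At the axon initial segment and at nodes of Ranvier, ankyrin-G and βIV-spectrin anchor sodium and potassium channels together with the cell adhesion molecule neurofascin, and large sensory neurons with fast myelinated axons depend on such nodes.

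Normalized counts compare libraries for 1 gene and not genes with each other, since longer transcripts collect more reads. Genes were called at an FDR (Benjamini-Hochberg adjusted p) below 0.1 and a change of at least 2-fold. In bulk samples such as these, fewer cells of a type and less RNA per cell cannot be told apart.

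The ankyrins were higher in the Cre+ pull-downs than in the Cre+ inputs in every library. Ank2 encodes ankyrin-B, the ankyrin of the axon shaft, and lies at chr3:126921607-127500347 on the minus strand (RefSeq annotation of GRCm38, the mm10 build). Its level was 965, 1817 and 1814 in the Cre+ inputs and 8222, 15075 and 11252 in the Cre+ pull-downs. The Cre- inputs had 1429, 1768 and 1687 and the Cre- pull-downs 2647, 5017 and 3228. Pull-downs lay above inputs without overlap in both genotypes, and the lowest Cre+ pull-down lay above the highest Cre- pull-down. The log2 fold change of pull-down against input was 2.89 ± 0.33 (SE, n = 3 per group) in Cre+ and 1.18 ± 0.21 in Cre-.

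Ank3 encodes ankyrin-G, the organizer of the initial segment and of nodes, and lies at chr10:69533486-70027436 (plus strand). It had 263, 573 and 608 normalized counts in the Cre+ inputs and 2823, 1469 and 1640 in the Cre+ pull-downs. The Cre- inputs had 399, 502 and 570 and the Cre- pull-downs 776, 661 and 715. Again no pull-down overlapped the inputs of its genotype, with a log2 fold change of 2.03 ± 0.39 in Cre+ and 0.57 ± 0.16 in Cre-. Ank1 encodes ankyrin-R, first described in the red blood cell, and lies at chr8:22974836-23150501 (plus strand). It had 154, 265 and 255 normalized counts in the Cre+ inputs against 748, 828 and 534 in the Cre+ pull-downs. The Cre- inputs had 219, 323 and 229 against 289, 411 and 349 in the Cre- pull-downs. These last groups overlapped, and the log2 fold change was 1.64 ± 0.31 in Cre+ and 0.47 ± 0.19 in Cre-.

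The 2 abundant spectrins followed the ankyrins. Sptan1 encodes αII-spectrin, the α subunit outside red cells, and lies at chr2:29965560-30031451 (plus strand). Its level was 416, 636 and 633 in the Cre+ inputs and 4408, 2070 and 8648 in the Cre+ pull-downs, the widest relative spread of the 9 genes within a pull-down group after Sptbn4 and larger than the spread of 1719, 1541 and 1781 in the Cre- pull-downs. Inputs labelled Cre- had 430, 667 and 642. The log2 fold change was 3.16 ± 0.48 in Cre+ and 1.56 ± 0.18 in Cre-. With 1 library left out the Cre+ value ran from 2.55 to 3.56. Sptbn1 encodes βII-spectrin, its partner along the axon shaft, and lies at chr11:30099395-30268384 (minus strand). It had 505, 1138 and 1222 normalized counts in the Cre+ inputs and 6654, 3429 and 7169 in the Cre+ pull-downs. In Cre- the inputs had 743, 1200 and 1185 and the pull-downs 1804, 2140 and 2361. Cre+ pull-down 2 was the lowest of the 3 for both spectrins, and neither gene's pull-downs overlapped its inputs. The log2 fold change of Sptbn1 was 2.58 ± 0.40 in Cre+ and 1.04 ± 0.19 in Cre-.

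Sptbn4 encodes βIV-spectrin, the spectrin of the initial segment and nodes (chr7:27356383-27447704, minus strand), and was close to the lower limit of what was measured. Its Cre+ inputs had 7.78, 4.51 and 4.45 normalized counts and its Cre+ pull-downs 18.1, 11.6 and 2.06, the last from 17 counts, so the groups overlapped. With an authors' mean FPKM (fragments per kilobase of gene, scaled by depth) of 0.979 it did not pass the filter of 1 in the Cre+ table and was not tested there. In Cre- it passed, with 8.23, 4.69 and 6.29 in the inputs and 16.37, 19.55 and 15.96 in the pull-downs, which did not overlap. Its log2 fold change in Cre- was 1.46 ± 0.33.

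Of the membrane protein and the actin-side proteins of the network, Nfasc and Epb4.1l3 had their highest levels in the Cre- pull-downs and Add1 in the Cre+ pull-downs. Nfasc encodes neurofascin, an adhesion molecule bound by ankyrin-G, and lies at chr1:132564690-132741848 (minus strand). Its level was 250, 303 and 303 in the Cre+ inputs and 451, 709 and 664 in the Cre+ pull-downs. The Cre- inputs had 269, 309 and 303 and the Cre- pull-downs 822, 1043 and 894, so every Cre- pull-down lay above every Cre+ pull-down. The log2 fold change was 1.08 ± 0.26 in Cre+ and 1.67 ± 0.15 in Cre-.

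Epb4.1l3, now named Epb41l3, encodes protein 4.1B, a linker of axonal membrane proteins to spectrin and actin beside nodes, and lies at chr17:69075647-69289991 (plus strand). It had 651, 743 and 716 normalized counts in the Cre+ inputs and 1047, 1294 and 1049 in the Cre+ pull-downs. For Cre- these were 740, 791 and 667 in the inputs and 1536, 1477 and 1435 in the pull-downs. As for Nfasc, the Cre- pull-downs were the highest of the 4 groups without overlap, and the log2 fold change was 0.67 ± 0.22 in Cre+ and 1.04 ± 0.14 in Cre-. Add1 encodes α-adducin, which caps actin filaments and joins them to spectrin, and lies at chr5:34573664-34632308 (plus strand). Its Cre+ inputs had 283, 335 and 328 and its Cre+ pull-downs 407, 505 and 486, against 251, 318 and 314 in the Cre- inputs and 282, 296 and 263 in the Cre- pull-downs. The pull-downs lay above the inputs in Cre+ and among them in Cre-, with log2 fold changes of 0.55 ± 0.24 and −0.05 ± 0.15.

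**Figure D1:**
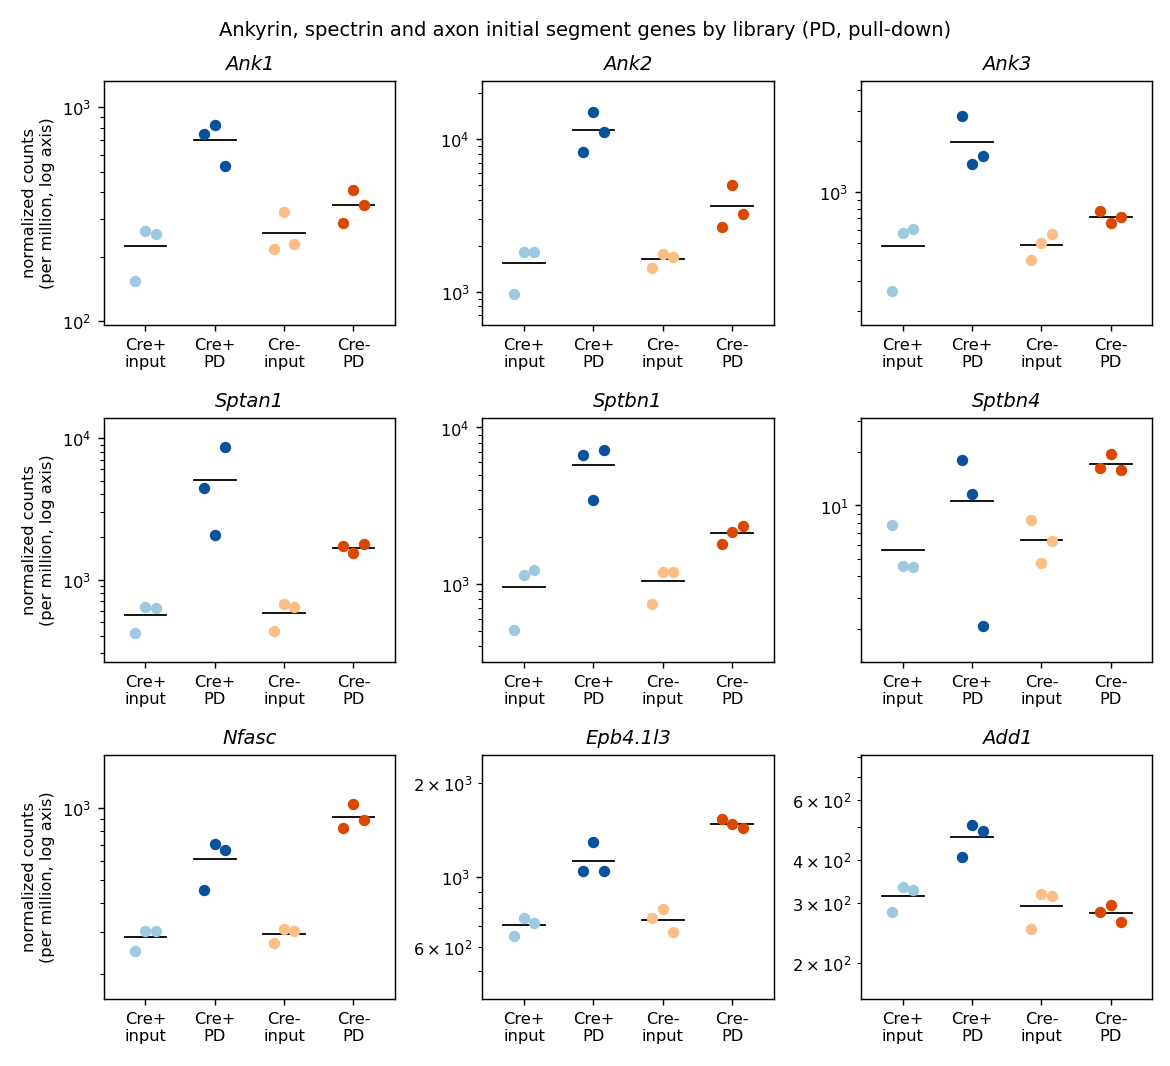
Normalized counts (log axis, a range of its own for each gene) of the 9 genes in the 12 libraries, as points by group, with the mean as a line. For Ank1, Ank2, Ank3, Sptan1, Sptbn1 and Add1 the 3 Cre+ pull-downs are the highest points, whereas for Nfasc and Epb4.1l3 the 3 Cre- pull-downs are. The shares of all genes with these orders were not computed. Inputs of the 2 genotypes lie at like levels throughout.

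Past both cutoffs for enrichment in Cre+ were 6 of the 8 genes tested (Ank1, Ank2, Ank3, Sptan1, Sptbn1 and Nfasc), against 4.72% of 8947 genes in the table. In the Cre- libraries 6 of 9 were (Ank2, Sptan1, Sptbn1, Sptbn4, Nfasc and Epb4.1l3), where 6.01% of 11526 were. None was past the cutoffs for depletion, against 2.19% of all genes in Cre+ and 5.83% in Cre-. The lowest pull-down exceeded the highest input for 8 of the 8 genes tested in Cre+, against 15.5% of all genes, and for 7 of 9 in Cre-, against 18.2%. Their median log2 fold change was 1.84 in Cre+, with 0.08 over all genes, and 1.04 in Cre-, with −0.04 over all genes. These counts come from the contrast the list was proposed on and are no evidence about it. The number of calls fell across the whole Cre+ table when an input was left out. Without Cre+ input 1 or Cre+ input 3 only Ank2 was past both cutoffs, against 0.0782% and 0.0447% of all genes, and without Cre+ input 2 Ank2, Sptan1 and Sptbn1 were, against 0.659%. The log2 fold changes moved less, and without each of these inputs that of Ank1 lay between 1.43 and 1.77. Nfasc also dropped out without Cre+ pull-down 2 or Cre+ pull-down 3. In Cre- Sptbn1 dropped out without Cre- input 1 or Cre- pull-down 3, Epb4.1l3 without Cre- input 3 and Ank2 without Cre- pull-down 2, each leaving 5 genes, against 4.99% to 5.80% of all genes.

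As a share of all counts, the 9 genes together took 0.570% ± 0.158 (SD, n = 3) of the Cre+ inputs and 2.24% ± 0.348 of the Cre+ pull-downs. The Cre- inputs gave 0.597% ± 0.0810 and the Cre- pull-downs 1.08% ± 0.0938.

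The difference in enrichment between the genotypes was tested as the interaction of fraction and genotype in a fit of all 12 libraries. Its p-values are adjusted over 8954 genes, but they come from the libraries the list was proposed on. Enrichment was higher in Cre+ for Ank2, by 1.75 ± 0.41 (log2, adjusted p = 0.0559), for Sptbn1, by 1.58 ± 0.47 (adjusted p = 0.0997), and for Ank3, by 1.49 ± 0.43 (adjusted p = 0.0968). These 3 of 9 were past both cutoffs, against 2.33% of all genes, and none was past them with a lower enrichment in Cre+, against 2.03%. Sptan1, at 1.63 ± 0.53 (adjusted p = 0.125), and Ank1, at 1.20 ± 0.37 (adjusted p = 0.105), did not pass, nor did Add1 at 0.63 ± 0.26 (adjusted p = 0.199). The values of Nfasc (−0.56 ± 0.28, adjusted p = 0.296), Epb4.1l3 (−0.33 ± 0.22, adjusted p = 0.431) and Sptbn4 (−0.51 ± 0.89, adjusted p = 0.785) were below 0 and did not pass. Sptbn4 passed the FPKM filter in the Cre- table only, where its mean FPKM was higher, so its difference is given as a description. That difference ran from −1.14 to −0.02 with 1 library left out. The median over the 9 genes was 1.20 and that over all genes 0.13. No gene of the 9 passed without Cre+ input 1, Cre- input 2, Cre- input 3 or Cre- pull-down 3, and 5 passed without Cre+ pull-down 1 (Ank1, Ank2, Ank3, Sptan1 and Sptbn1). The shares of all genes moved alike, to between 0.145% and 0.402% in the former settings and 7.09% in the latter, and the log2 difference of Ank2 in the former was 1.51 to 1.73. Without Cre+ pull-down 2 these were Ank2, Ank3, Sptan1 and Sptbn1, against 7.96% of all genes, and without Cre+ pull-down 3 Ank1, Ank2 and Ank3, against 5.63%. Leaving out any other library left Ank2 alone, against 0.424% to 2.47%. None of the 9 other than Ank2 passed when libraries were scaled by size alone or by the upper quartile.

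The pull-downs of both genotypes were also compared directly. For all 3 ankyrins, Sptan1, Sptbn1 and Add1 the lowest Cre+ pull-down lay above every other library. The share of all genes with that order was not computed, so it is only a description of these genes. Ank2 was higher in the Cre+ pull-downs by 1.67 (log2, adjusted p = 0.00458), Ank3 by 1.46 (adjusted p = 0.0105), Sptbn1 by 1.45 (adjusted p = 0.0154), Sptan1 by 1.59 (adjusted p = 0.0175) and Ank1 by 1.01 (adjusted p = 0.0240). These were 5 of 9, against 10.8% of all genes, and none of the 9 was called lower, against 7.14%. Add1 was higher by 0.73, under 2-fold (adjusted p = 0.0198). Nfasc, at −0.60 (adjusted p = 0.0617), was under 2-fold, and Epb4.1l3, at −0.39 (adjusted p = 0.109), and Sptbn4, at −0.71 (adjusted p = 0.464), did not pass. Here too Sptbn4 was among the 9 tested only through the filter in the Cre- table, and its value is a description. With only the 6 pull-downs in the fit, a setting added after the data were seen, Ank2, Ank3 and Sptbn1 were called, against 1.36% of all genes. In the fit of 12 libraries Ank1 lost its call without Cre+ pull-down 1, Cre+ pull-down 2 or Cre- pull-down 1, and Sptan1 without Cre+ pull-down 3, each leaving 4 genes, while 11.6%, 15.6%, 8.66% and 13.9% of all genes were called higher in these settings.

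Between the Cre+ and Cre- inputs the log2 differences of the 9 genes lay between −0.20 and 0.10. None was called by edgeR or DESeq2 and none had an unadjusted p under 0.05. Among all 8954 genes 0 were called by either tool and 18 (0.201%) had such a p in edgeR. That share is below the 0.05 that the cutoff itself lets through when nothing differs. The edgeR test was thus conservative here, and the lack of calls does not show equal inputs.

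The shares of the 3 ankyrins in their summed counts are given as a description, with no test. Ank2 made up 67.8% to 69.9% of all ankyrin counts in the Cre+ inputs and 67.8% to 69.8% in the Cre- inputs. It took 71.3% to 82.4% in the Cre- pull-downs, above all inputs, and 69.7% to 86.8% in the Cre+ pull-downs, where the first library stayed among the inputs. The share of Ank1 was 9.52% to 11.1% in the Cre+ inputs and 3.98% to 6.35% in the Cre+ pull-downs, and 9.22% to 12.5% and 6.75% to 8.13% in Cre-, without overlap in either genotype. Ank3 had a share of 19.0% to 22.7% in the Cre+ inputs and 8.46% to 23.9% in the Cre+ pull-downs, and of 19.3% to 22.9% and 10.9% to 20.9% in Cre-, with overlap in both.

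**Figure D2:**
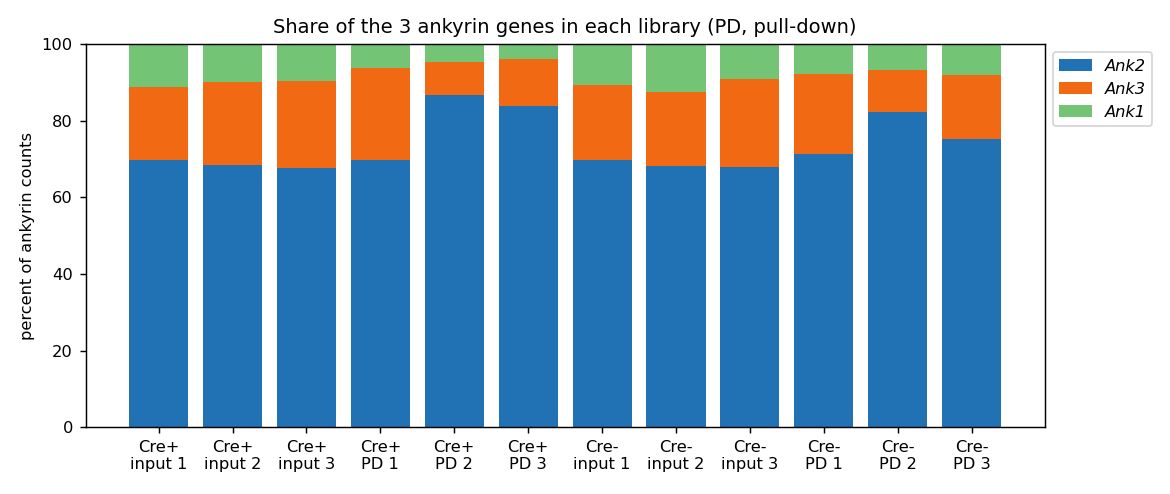
Bars give the percent of the ankyrin counts of each library that came from Ank2 (blue), Ank3 (orange) and Ank1 (green). All 6 inputs look alike, with 67.8% to 69.9% from Ank2, whereas the pull-downs range from 69.7% to 86.8%.

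The counts of Nfasc per count of Ank3, its ankyrin partner, moved in opposite directions. The ratio was 0.499 to 0.951 in the Cre+ inputs and 0.160 to 0.482 in the Cre+ pull-downs, and 0.531 to 0.676 in the Cre- inputs and 1.06 to 1.58 in the Cre- pull-downs. Neither pair of groups overlapped. The ratio of Sptan1 to Sptbn1, the spectrin subunits that pair, was 0.518 to 0.823 in the Cre+ inputs and 0.604 to 1.21 in the Cre+ pull-downs, which overlapped. In Cre- it was 0.542 to 0.579 in the inputs and 0.720 to 0.953 in the pull-downs, which did not.

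Levels per length can be compared between genes only through the authors' mean FPKM, which pools the inputs and pull-downs of a genotype and has no spread. Ank2 had 854 in the Cre+ table, more than 99.7% of its genes, and 447 in the Cre- table. In the Cre+ and the Cre- table, in that order, Sptbn1 had 275 and 189, Epb4.1l3 213 and 271, and Sptan1 178 and 140. Ank3 had 102 and 63.1, Add1 91.8 and 75.1, Ank1 49.7 and 37.0, and Nfasc 40.0 and 62.5. Sptbn4 was lowest with 0.979 and 1.25. Ank2 was highest and Sptbn4 lowest in both tables. Epb4.1l3 stood above Sptbn1, Add1 above Ank3 and Nfasc above Ank1 only in the Cre- table.

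Across the 12 libraries, likeness of the genes was measured by the Pearson correlation of log2 normalized counts, given as a description of libraries that share group and depth. Sptan1 and Sptbn1 correlated at 0.969, Ank3 and Sptbn1 at 0.959 and Ank1 and Ank2 at 0.957. Nfasc and Epb4.1l3 correlated at 0.972 with each other, and Nfasc at 0.495 with Ank3, 0.637 with Sptbn1, 0.680 with Ank2 and 0.689 with Sptan1. Add1 stood at 0.807 with Ank2 and 0.148 with Epb4.1l3. Sptbn4 stood at 0.174 with Ank2. Of 8953 other genes, those most like Ank2 were Ccdc88a (0.983), Hivep1 (0.982), Map1b (0.978), Atrx (0.978) and Taok1 (0.974), and among the genes described here Ank1 ranked highest, at 26.

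Long transcripts moved with the enrichment. Longest coding transcripts in GENCODE M21 had 14305 bases for Ank2, 9963 for Ank3, 9739 for Nfasc, 9107 for Sptbn1, 8747 for Sptbn4, 8218 for Ank1, 8018 for Sptan1, 4547 for Add1 and 4073 for Epb4.1l3. Across genes, which are not independent, transcript length and log2 fold change had a Spearman correlation of 0.548 for the Cre+ enrichment, 0.365 for the Cre- enrichment and 0.305 for their difference, whereas GC content had −0.005, −0.030 and 0.009. Of the 684 genes tested in Cre+ with at least 8000 bases, 226 (33.0%) were enriched, with a median log2 fold change of 1.21. In Cre- 150 of 702 (21.4%) were, with a median of 0.53, and the difference passed upward for 51 of 685 (7.45%), with a median of 0.68. Ank2, Sptan1 and Sptbn1, at 2.58 to 3.16, and Ank3 and Ank1, at 2.03 and 1.64, were above the median of long genes in Cre+, and Nfasc, at 1.08, was below it. In Cre- Nfasc, at 1.67, was the highest of the 9 and above the median of long genes. Sptan1, Sptbn4, Ank2 and Sptbn1, at 1.04 to 1.56, were also above that median. Ank3, at 0.57, was near it and Ank1, at 0.47, was below it. The part of transcript length in these values was not tested further.

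**Figure D3:**
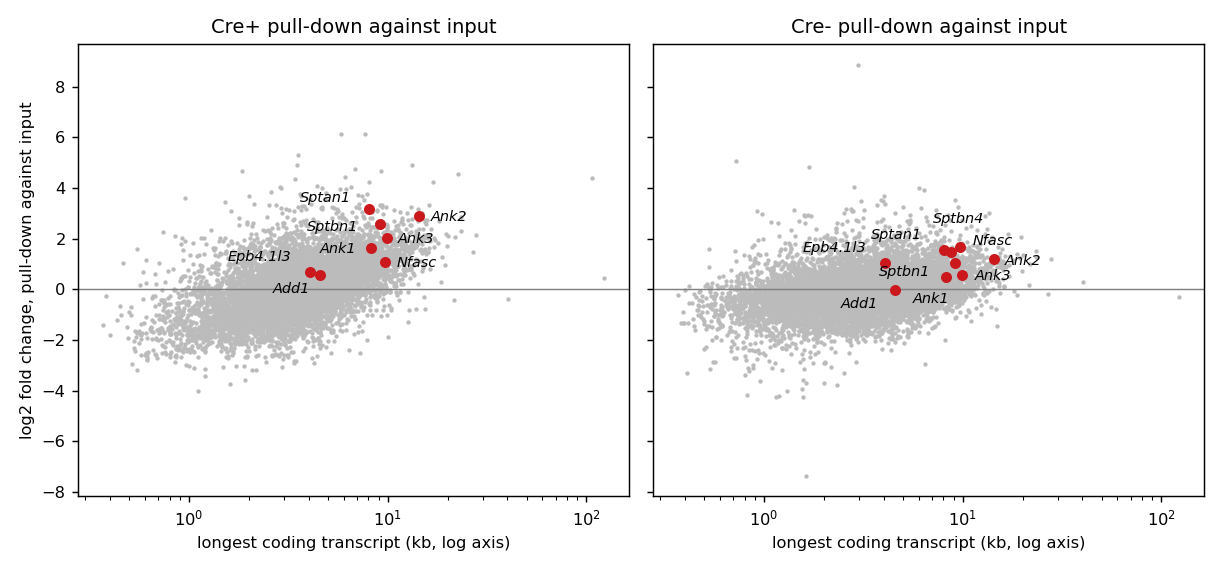
Each grey point is a gene, by the length of its longest coding transcript (kb, log axis) and its log2 fold change of pull-down against input, in Cre+ (left) and Cre- (right), with the genes described here in red. The cloud rises with length in both, with a Spearman correlation of 0.548 in Cre+ and 0.365 in Cre-, and 7 of the 9 red genes have 8018 bases or more.

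Markers of neurons and of other cell types moved as follows. Marker levels here were scaled with TMM factors from the 6 libraries of each genotype alone. Those of Cre+ and Cre- are thus on separate scales. Summed levels of 11 neuronal markers (Tubb3, Snap25, Nefh and others) ran from 22159 to 29447 in the Cre+ inputs and from 22544 to 25167 in the Cre+ pull-downs. In Cre- they ran from 25499 to 30283 in the inputs and from 50087 to 57881 in the pull-downs. Of these 11, 0 were enriched in Cre+, against 4.72% of all genes, and 3 were depleted (Tubb3, Uchl1 and Stmn2), against 2.19%. In Cre- 3 were enriched (Snap25, Nefm and Nefh), against 6.01%, and 0 were depleted, against 5.83%. Schwann cell and satellite glia markers, of which 7 of 10 were listed in the Cre+ table, summed to 2429 to 3726 in the Cre+ inputs and 1662 to 2275 in the pull-downs. The full 10 summed to 2805 to 4320 and 1276 to 1706 in Cre-. None of the 7 tested in Cre+ was called. In Cre- 2 of 9 tested (Pmp22 and Fabp7) were depleted, against 5.83% of all genes, and none was enriched. Ank1, Sptan1 and several others are also known from red blood cells, but neither table listed the red cell markers Alas2 and Slc4a1 or the globin genes looked up (Hba-a1, Hba-a2, Hbb-b1, Hbb-b2, Hbb-bs and Hbb-bt). Of 6 striated muscle markers, another tissue rich in ankyrin, only Ttn was listed in the Cre+ table. It was called enriched there (log2 fold change 4.38), at 19.8 to 34.6 in the inputs and 189 to 1017 in the pull-downs. Acta1, Ckm, Actn2 and Myl1 were in neither table. In Cre- Ttn and Myh4 were listed and summed to 21.7 to 25.4 in the inputs and 78.2 to 254 in the pull-downs. Of 4 endothelial markers 3 were listed in each table and none was called, but in Cre+ the log2 fold changes had a median of 1.38 and the sums were 46.1 to 82.3 in the inputs and 96.6 to 381 in the pull-downs, without overlap. Of the fibroblast markers 4 were tested in Cre+ and 5 in Cre-, and of the macrophage markers 2 and 3. None of these was called enriched, and Col1a1 was called depleted in Cre-. What these cells contribute to the values of the 9 genes was not tested.

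The rest of the skeleton was followed in 19 genes. These were of the spectrin, adducin, protein 4.1 and tropomodulin families, together with Dmtn, Epb4.2, Mpp1 and Slc4a1. In Cre+ 2 of 13 tested rose in the pull-down, against 4.72% of all genes, and none fell. Add2, which encodes β-adducin, rose by 1.27 ± 0.28 (log2, adjusted p = 0.0540) and Epb4.1l1, which encodes protein 4.1N, by 1.43 ± 0.26 (adjusted p = 0.0371). In Cre- 5 of 14 rose, against 6.01%, and none fell. They were Sptb, the β spectrin of red cells and muscle, at 2.42 ± 0.26 (adjusted p = 0.000104), Epb4.1 at 1.22 ± 0.20 (adjusted p = 0.00169), Epb4.1l1 at 1.40 ± 0.20 (adjusted p = 0.000525), Epb4.1l4a at 1.01 ± 0.23 (adjusted p = 0.00989) and Epb4.1l4b at 1.33 ± 0.31 (adjusted p = 0.0127). The median log2 fold change was 0.94 in Cre+ and 0.46 in Cre-. Sptbn5 and the red cell skeleton genes Epb4.2 and Slc4a1 were in neither table, which need not mean 0 counts. For the difference in enrichment between the genotypes 0 of 13 were called in edgeR, against 2.33% of all genes higher and 2.03% lower, and 1 had an unadjusted p under 0.05, against 19.5% of all genes. Between the pull-downs 1 of 13 was called higher in Cre+, against 10.8% of all genes, and 1 lower, against 7.14%. These were Epb4.1l5, higher by 2.72 (adjusted p = 0.0233), and Sptb, lower, at −1.05 (adjusted p = 0.0957). Epb4.1l5 passed the FPKM filter in Cre+ only, where it was higher, so its difference is given as a description.

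Of 30 further genes of the initial segment and nodes, 6 of 28 tested rose in Cre+, against 4.72% of all genes, and none fell. Kcna2 (2.15 ± 0.28, adjusted p = 0.0236) and Kcna1 (1.45 ± 0.27, adjusted p = 0.0371) encode potassium channel subunits of the axon, and Scn8a (2.05 ± 0.38, adjusted p = 0.0371) encodes the sodium channel of nodes. Scn9a, a sodium channel of pain-sensing neurons, rose by 1.31 ± 0.29 (adjusted p = 0.0540), Mical3 by 1.68 ± 0.43 (adjusted p = 0.0757) and Adam22, whose product associates with axonal potassium channels, by 1.19 ± 0.28 (adjusted p = 0.0626). In Cre- 5 of 28 rose, against 6.01%, and 1 fell, against 5.83%. Scn8a (1.47 ± 0.15, adjusted p = 7.4e-05), Kcna1 (1.26 ± 0.23, adjusted p = 0.00339) and Kcna2 (1.26 ± 0.20, adjusted p = 0.00139) rose here too, as did Cntnap2 (1.03 ± 0.17, adjusted p = 0.00166), an adhesion protein of the juxtaparanode. Scn2b, a sodium channel β subunit, fell by 1.92 (adjusted p = 0.00726). Between the genotypes 1 of 28 was called for a higher enrichment in Cre+, near the 2.33% of all genes, and this was Scn9a, at 1.58 ± 0.33 (adjusted p = 0.0364). Without Cre+ input 1 or Cre+ input 3 none of these 41 genes was called in Cre+, where 0.0782% and 0.0447% of all genes were enriched, and without Cre+ pull-down 1 there were 12 enriched, where 8.98% of all genes were, and 1 depleted (Mpp1).

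**Figure D4:**
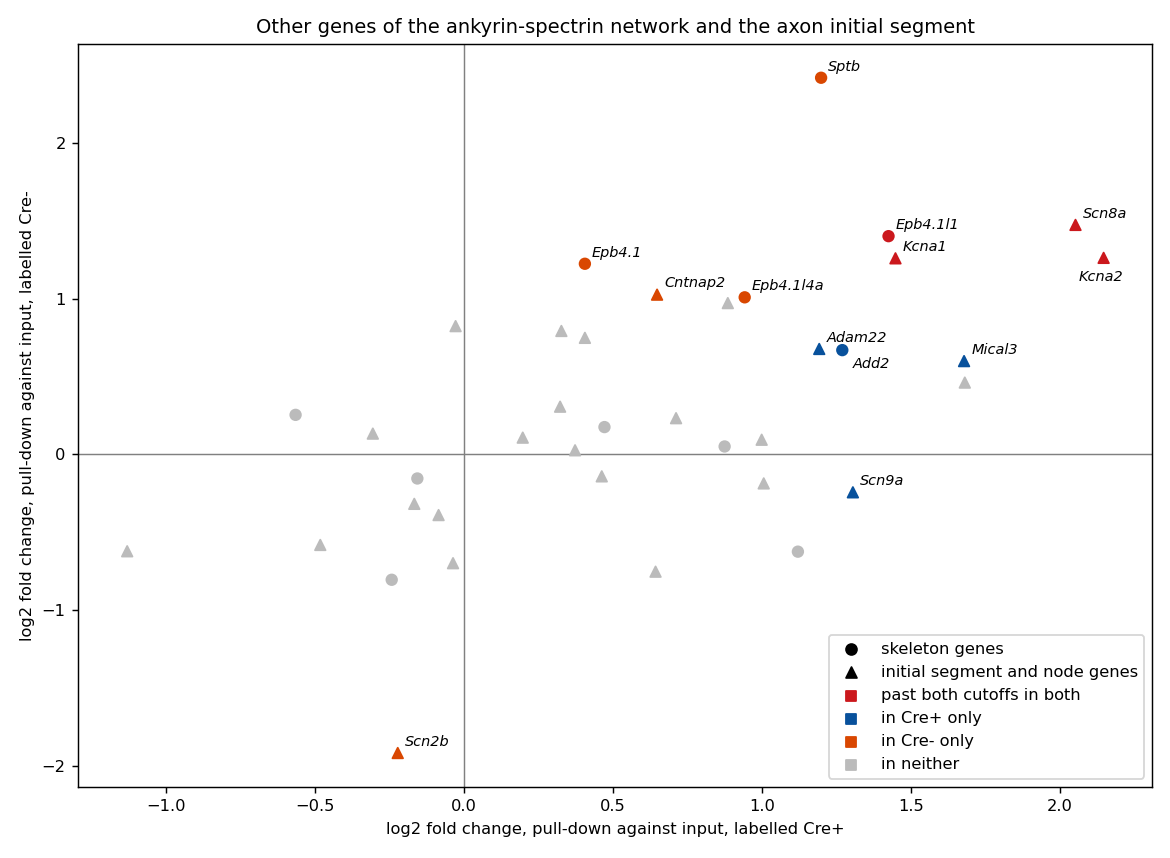
Log2 fold change of pull-down against input in Cre+ (horizontal) and Cre- (vertical) for the other skeleton genes (circles) and initial segment and node genes (triangles) that were tested in both genotypes and are reported here, coloured by where they were past both cutoffs. Epb4.1l1, Scn8a, Kcna1 and Kcna2 passed in both and lie between 1.26 and 2.15, and Scn2b is the lowest in Cre-.

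Counts are per gene and do not separate transcripts, of which the annotation lists 31 coding ones for Ank3, 16 for Ank2 and 13 for Ank1. Exons of Ank1 overlap the antisense gene Gm15816 over 6.37% of their bases and those of Sptbn4 overlap Gm20479 and Gm44924 over 3.94%, and the strand setting of the counting is not given in the sources used here, so reads of such partners may not have been told apart. The overlap was below 1% for each of the other 7 genes.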

How the data were processed

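RNA of HA pull-downs and inputs from cultured DRG neurons was sequenced in 12 libraries, grouped by the genotype and RNA fraction in their labels. Column names of the Cre+ table resemble titles of Cre- samples, and those of its pull-down columns equal such titles apart from punctuation. The columns were assigned to Cre+ as groups, because the descriptions of the Cre+ samples name that table, so their numbers only tell libraries apart. The study's methods place all samples in 1 multiplexed pool, and no batch is given.

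The authors aligned reads to mm10 with STAR and deposited, per genotype, whole-number counts of uniquely mapped fragments per refSeq gene from HTSeq. The submitters' processing notes name CASAVA 1.8.2 and edgeR. The deposited tables also give the authors' mean FPKM over the libraries of a genotype, used here as a filter (above 1) and as a level. Columns with the authors' fold changes, p-values and FDR were not used, nor were 18 further columns of per-sample values. The Cre+ table holds 9112 genes, with a lowest count of 5, and 14177 genes are in that of Cre-.

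The counts were tested with edgeR 4.0.16 (TMM, glmQLFit with robust quasi-dispersions, glmQLFTest) in R 4.3.3, on the whole table of 6 libraries for each genotype and on all 12 libraries for comparisons between genotypes, at FDR below 0.1 and 2-fold. An SE is the size of the log2 fold change divided by the square root of F. The fits were tested on simulated data. Alternatives were DESeq2 1.42.0, other scalings and filters, all libraries in 1 fit, a replicate block and leaving out each library. Non-robust dispersions and fits of only the 6 libraries compared were added after the data were seen. The 9 genes, the other gene lists and the limit of 8000 bases were chosen with earlier results of these data known. Named genes are these 9, Runx3, every listed network gene past both cutoffs in either genotype apart from some that are not reported here, red cell skeleton genes, and the 5 genes most like Ank2. Samples in the labels come from mice of 3 to 6 months, while the study's methods state a younger age. Intervals and counts from single libraries reflect fragments and not independent molecules.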

Additional observations from a re-analysis of the deposited data

Results flagged for a closer look

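The enrichment in the pull-down differed between the libraries labelled Cre+ and Cre- by the interaction test for 3 of the 9 genes. Of all 8954 genes 2.33% were called higher and 2.03% lower in Cre+. The log2 difference was 1.75 for Ank2, 1.49 for Ank3 and 1.58 for Sptbn1, each higher in Cre+. Their adjusted p in edgeR lay between 0.0559 and 0.0997, and the libraries are those on which the genes were proposed. Under 18 alternatives Sptbn1 lost its call in 15, Ank3 in 11 and Ank2 in 4. Over the same alternatives the share of all genes called higher in Cre+ ran from 0.145% to 7.96%. Groups of 3 were not tested for single samples that stand apart.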

How the results depend on the processing

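Depth limited Sptbn4 most, with 17 to 302 counts per library. With 3 libraries a group, single libraries decided many calls, and the cause was not tested for any change below. The number of the 9 genes past both cutoffs in Cre+ (6) lay between 1 and 6 when 1 library was left out and was 5, without Nfasc, with upper-quartile scaling or library size alone. In Cre- (6) it lay between 5 and 6, and was 3 with scaling by library size alone (Sptan1, Sptbn4 and Nfasc) and 4 with all 12 samples in 1 fit (without Sptbn1 and Sptbn4). For the difference in enrichment (3) it lay between 0 and 5, and was 5 with DESeq2, 1 with upper-quartile scaling or library size alone, and 2, without Sptbn1, with no filter, the filter on counts or non-robust dispersions. Between the pull-downs (5) it lay between 4 and 5, and was 3 with only the 6 libraries compared in the fit. Between the inputs it was 0 under all settings. For the other network genes, Cre+ (8 past both cutoffs) gave 3 with library size alone, 13 with all 12 samples in 1 fit and 0 to 13 with 1 library left out, and Cre- (11) gave 6 with all 12 samples in 1 fit and 9 to 15 with 1 library left out. The log2 fold change of Add1 in Cre- (−0.05) ran from −0.15 to 0.017 with 1 library left out and was above 0 without Cre- input 2, Cre- input 3 or Cre- pull-down 3. Of 392 recomputed values of single genes, 327 kept direction and side of the cutoffs, 56 lost the call, 6 gained it and 3 reversed.

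Scaling by library size alone moved the median log2 fold change of all genes by −0.44 (Cre+ enrichment), −0.23 (Cre- enrichment) and −0.24 (their difference), and upper-quartile scaling by −0.19, −0.03 and −0.18. In Cre+ the 422 enriched and 196 depleted genes became 1085 and 575 with DESeq2, 249 and 266 with upper-quartile scaling, 192 and 699 with library size alone, 1250 and 948 with all 12 libraries in 1 fit, and 4 to 803 and 0 to 540 with 1 library left out. In Cre- 693 and 672 became 429 and 1238 with library size alone and 270 and 175 in 1 fit. For the difference 209 and 182 became 612 and 425 with DESeq2, 85 and 205 with upper-quartile scaling and 72 and 275 with library size alone. For the pull-downs 965 and 639 became 628 and 864, and 545 and 992, with the same 2 scalings, and 122 and 134 with only the 6 libraries.

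A replicate block could be fitted in Cre- alone, since the numbers of the Cre+ columns could not be tied to samples. Same-numbered pull-downs and inputs correlated in their deviations at 0.0716, 0.0308 and 0.133, not all over 0.1, and every sample correlated best with its own number. An input is part of a lysate, but the labels do not say that equal numbers mark 1 lysate, so the samples were not treated as paired. The block gave 6 of the 9 genes and 11 other network genes, as without it, and 704 enriched and 792 depleted genes in all. It changed no call of the 9 genes.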
